A study of Homo sapiens with 6 samples.

Results

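Of 226920 chromatin regions measured in A375 melanoma cells, 814 carry the name of an integrin or laminin gene. Regions were picked by gene name, but this gene family was chosen with earlier results of these data known. Integrins are the receptors through which cells hold on to the extracellular matrix, and each one is a pair of an alpha and a beta subunit. Laminins are cross-shaped trimers of an alpha, a beta and a gamma chain that form the network of basement membranes, and several integrins bind them. In melanoma, integrins that bind matrix proteins have long been studied for their part in invasion from the epidermis into the dermis. The data describe how open the chromatin was at regions named for these genes after recombinant HMGA1, an architectural chromatin protein that binds AT-rich DNA, was added to A375 cells, an established human melanoma line.

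Open chromatin was mapped with ATAC-seq, which uses a transposase to cut accessible DNA and tag it for sequencing. A375 cells made up 3 groups of 2 libraries each, left untreated (mock), exposed to recombinant HMGA1 for 2 h, or exposed to it for 18 h. The labels give no time for the mock group, and there is no separate mock for each exposure time. Time in culture and length of exposure therefore cannot be told apart. The deposited values are the authors' 3 pairwise comparisons from DESeq2, with 1 mean signal per region over all 6 libraries (read counts scaled by size factors), so values of single libraries were not analysed here and the depth per library is unknown. Replicates are described as biological, without a statement that they came from separate cultures, and p-values measure only the spread between these libraries. Because bulk cells were measured, a change in the share of cells with an open region and a change in how open it was per cell cannot be told apart.

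Regions were members when their gene name began with ITGA, ITGB, LAMA, LAMB or LAMC and a further digit or letter, without the 3 names of integrin-binding proteins (ITGB1BP1, ITGB1BP2 and ITGB3BP). This gave 814 of 226920 regions (0.359%), each present in the 3 comparisons. They carried 39 names: 18 alpha and 8 beta subunits of integrins (506 regions), 12 laminin chains (285 regions) and ITGBL1 (23 regions), which encodes a secreted protein related to beta subunits and is not a receptor subunit. The name is that of the gene whose start the authors assigned to a region and carries no evidence of regulation; 31 members also carried the name of another gene. Genes had between 4 regions (ITGA7 and ITGAM) and 53 regions (LAMA5), with a median of 20. Regions lay inside the RefSeq span of the named gene in 607 cases, upstream of it in 202 and downstream in 5. Mean signal ran from 2.18 to 1427, with a median of 45.0, beside 39.3 over all regions. The strongest of all lay 17.7 kb from the start of ITGA10, a collagen-binding alpha subunit (1427), followed by ITGA3 at 6.21 kb (1026) and 28.1 kb (961) and ITGB8 at 22.0 kb (924). Whether they fell in exons, introns or untranslated regions was not analysed here.

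As a check of the label, start regions (those nearest to a gene start and within 1 kb of it) were found for 4 of 9 melanocyte lineage genes, with a mean signal of 694 at MITF, 302 at PAX3, 298 at PMEL and 63.8 at SOX10. None of the pigment genes MLANA, TYR, DCT and TYRP1 had a start region, nor had TFAP2A, the remaining gene of the list. By percentile of signal among all gene starts, MITF stood at 83.5, PAX3 at 43.5, PMEL at 43.0 and SOX10 at 17.3, beside 18.1 at the keratinocyte gene KRT5. Of markers of other cells, 0 of 5 immune genes had one, 3 of 5 keratinocyte genes had one with a mean signal of 26.9 to 69.4, 3 of 5 fibroblast genes had one with 45.2 to 59.1, and 1 of 4 endothelial genes had one (KDR, 197). The part of other cell types in the results was not tested.

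Signal at the gene starts, averaged over all 6 libraries, ranged widely among the integrin and laminin genes. Of the 39 genes, 29 had a start region, and in 24 of these it overlapped the start itself. Mean signal was highest at ITGB8, a beta subunit that pairs with alpha V and binds latent TGF-beta (740), ITGA3, a laminin-binding alpha subunit (718), ITGA1, a collagen-binding one (641), ITGAV (583) and LAMC1, the gamma chain of most laminins (576). Low values were found at the leukocyte subunit ITGAD (24.5), the platelet subunit ITGA2B (29.6), ITGAE (29.9) and ITGB7 (31.9). ITGB1, the beta subunit shared by most matrix-binding integrins, stood between them at 377. The median over the 29 genes was 251, against 353 over all 14706 genes with a start region. By the start the authors assigned, no start region was found for ITGBL1 or for 9 subunit genes, among them the leukocyte genes ITGAL, ITGAM and ITGB2, the epithelial subunit ITGB6, and LAMA1, LAMA4, LAMA5 and LAMB4. The authors' start can differ from the end of the RefSeq span: the RefSeq span of ITGB2 begins at position 44928815 of chromosome 21 on the minus strand, inside a region of mean signal 214 that the authors' table places 7.84 kb from its start.

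Promoter sequence from RefSeq (GRCh38.p14; 250 bases before to 50 after each start) was matched for 27 of the 39 genes. Across the 17 genes with a start region of mean signal 100 or more, the windows had a median G+C content of 71.0% (48.7% to 79.0%) and 27 CG dinucleotides, but in 4 of the 17 (LAMA3, LAMB2, LAMB3 and LAMC1) the RefSeq window does not overlap the start region whose signal set the class. In the 4 genes with a weaker start region the medians were 56.5% and 7, and in the 6 with none they were 49.5% and 5. The median over all 35116 windows was 58.7% and 14. Windows are shown for ITGB8, which had the highest signal, for ITGB5 and LAMB1, which had called regions elsewhere, and for ITGA2B, which had the lowest signal among genes with a window. All 4 overlap the start region of their gene. They lie at chr7:20330650-20330949 on the plus strand (ITGB8), chr3:124887316-124887615 on the minus strand (ITGB5), chr7:108003112-108003411 on the minus strand (LAMB1) and chr17:44389600-44389899 on the minus strand (ITGA2B), and are written 5′ to 3′ on the strand of the gene. Capitals mark GGGCGG, the core of the GC box that SP1-type factors bind, on either strand.
ITGB8: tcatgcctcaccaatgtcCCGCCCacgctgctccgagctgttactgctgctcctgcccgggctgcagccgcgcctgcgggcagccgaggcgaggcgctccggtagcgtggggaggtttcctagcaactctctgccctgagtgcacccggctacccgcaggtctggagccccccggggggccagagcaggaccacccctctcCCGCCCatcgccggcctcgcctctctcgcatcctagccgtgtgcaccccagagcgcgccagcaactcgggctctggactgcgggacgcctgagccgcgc
ITGB5: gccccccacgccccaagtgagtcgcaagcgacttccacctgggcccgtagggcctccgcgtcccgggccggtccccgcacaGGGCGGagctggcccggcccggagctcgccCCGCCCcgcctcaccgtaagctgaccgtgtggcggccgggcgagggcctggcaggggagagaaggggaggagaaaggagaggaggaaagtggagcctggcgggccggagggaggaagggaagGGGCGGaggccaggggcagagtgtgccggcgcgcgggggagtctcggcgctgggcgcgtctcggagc
LAMB1: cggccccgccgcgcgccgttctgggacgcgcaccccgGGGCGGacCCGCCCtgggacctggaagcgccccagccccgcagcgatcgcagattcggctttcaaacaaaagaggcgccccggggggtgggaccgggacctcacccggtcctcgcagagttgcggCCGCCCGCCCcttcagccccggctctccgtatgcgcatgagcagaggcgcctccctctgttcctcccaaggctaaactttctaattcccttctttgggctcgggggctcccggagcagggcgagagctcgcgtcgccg
ITGA2B: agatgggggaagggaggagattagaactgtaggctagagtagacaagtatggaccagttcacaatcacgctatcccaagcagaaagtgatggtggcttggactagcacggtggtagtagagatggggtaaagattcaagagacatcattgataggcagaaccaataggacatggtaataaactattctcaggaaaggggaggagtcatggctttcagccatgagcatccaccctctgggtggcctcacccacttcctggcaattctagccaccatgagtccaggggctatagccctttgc
GGGCGG was found in 15 of the 27 windows (55.6%), against 45.0% of all windows, and in 0 of those 27 the letters TATAAA of a TATA box were found on either strand, against 11.5% of all windows. TGANTCA, the letters that AP-1 factors bind, occurred in 2 of the 27 windows, those of ITGA5 and LAMA3 (7.41%, against 7.71% of all windows). These matches describe the windows only.

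Start regions by the authors' assigned start were not called in any comparison, and few gene starts of any kind were: 0.151% of all tested starts at 2 h against mock, 0.0171% at 18 h against mock and 0.354% at 18 h against 2 h. With 21 to 24 starts tested here, a count of 0 does not set these genes apart. For 2 h against mock, the authors' deposited table (DESeq2) called 0 of 24 tested start regions, none of which reached an unadjusted p under 0.05 (0 of 24, against 7.73% of all starts). Their log2 fold changes ran from -0.35 at ITGAX to 0.17 at LAMB2, with 21 of 24 below 0 and a median of -0.12, beside -0.11 over all 12595 gene starts tested. ITGB3 had the smallest p of these per the authors' deposited table, at -0.24 ± 0.13 (SE; adjusted p = 0.525). For 18 h against mock, 0 of 21 were called and 1 had an unadjusted p under 0.05, that of LAMB3, the beta chain of epithelial anchoring laminin, at -0.22 ± 0.11 (adjusted p = 0.588) per the authors' deposited table. Between 18 h and 2 h, 0 of 24 were called and 0 had an unadjusted p under 0.05, with values from -0.19 at LAMB2 to 0.19 at ITGA9.

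**Figure D1:**
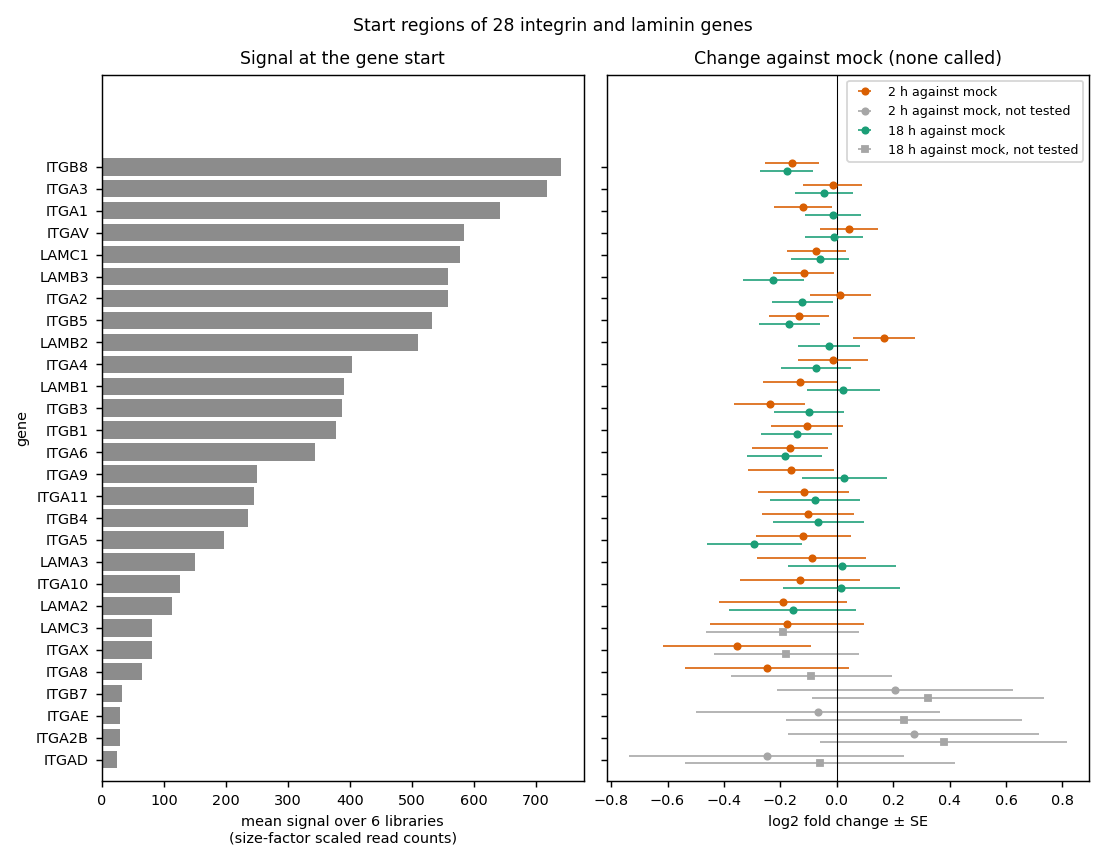
Start regions of 28 integrin and laminin genes, 1 row per gene in order of signal. The left panel gives the mean signal over 6 libraries (740 at ITGB8 to 24.5 at ITGAD), and the right panel the log2 fold change with its SE at 2 h and at 18 h against mock; grey points were not tested, and none was called.

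Called regions are those with an adjusted p under 0.05 by the authors' Wald test (DESeq2, Benjamini-Hochberg over all tested regions). Weak regions carry an adjusted p of exactly 1 in the deposited tables and were taken as not tested, which left 339 members at 2 h against mock, 222 at 18 h against mock and 431 at 18 h against 2 h; 383 members were tested nowhere. In all, 26 regions of 13 genes were called in at least 1 comparison, 22 of them inside the span of the named gene and 4 upstream of it. The other 26 genes, all of them subunit genes, had no called region, among them ITGB1, ITGA6, ITGA5, ITGA1 and ITGA2. Of all tested regions, 1.28% were called at 2 h against mock, 0.121% at 18 h against mock and 3.48% at 18 h against 2 h. With shares this low and few tested regions per gene, having no call does not set a gene apart.

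**Figure D2:**
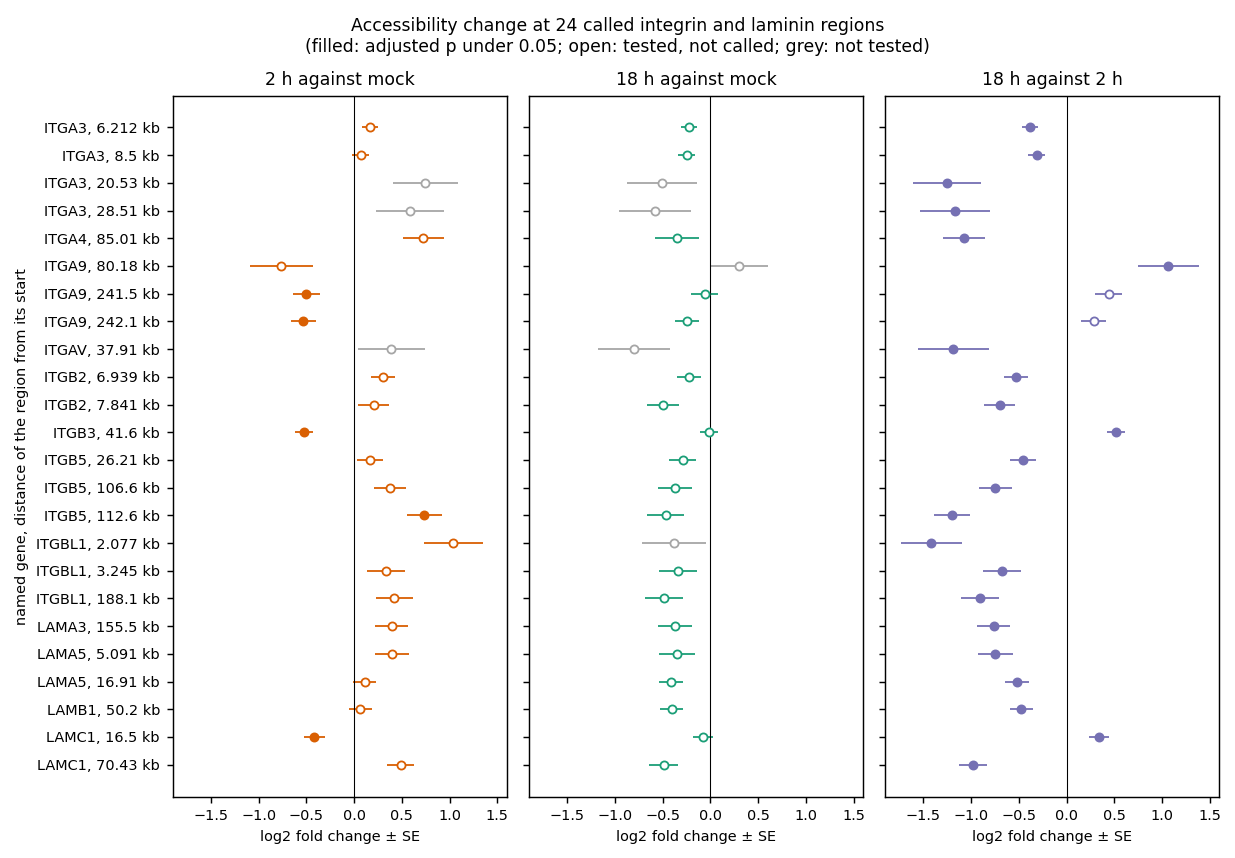
Log2 fold change with its SE in the 3 comparisons for 24 of the 26 called regions, 1 row per region, labelled by gene and distance from its start. Filled points are called; the 5 called at 2 h against mock comprise 4 lower and 1 higher, none is called at 18 h against mock, and 22 of those called at 18 h against 2 h are shown, 3 of them higher.

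The comparison of 2 h with mock asked what changed soon after the protein was added. At 2 h, 5 of 339 tested member regions were called (1.47%), close to the 1.28% of all tested regions. Of these 1 was higher, where 0.856% of all tested regions were, and 4 were lower, where 0.421% of all were. The median log2 fold change was -0.04 over the members and -0.06 over all tested regions, and relative to the median of all tested regions the members' median was 0.02. An unadjusted p under 0.05 was reached by 36 members (10.6%, against 10% of all), 16 of them higher and 20 lower, where 4.33% of all were higher and 5.68% lower.

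The region with the smallest p at 2 h lay inside ITGB3, the beta subunit that pairs with alpha V in invasive melanoma and with alpha IIb in platelets. It lay 41.6 kb from the start (chromosome 17, 47295444 to 47295945), had a mean signal of 729 and fell at 2 h, with a log2 fold change of -0.53 ± 0.09 (SE; adjusted p = 2.94e-05) per the authors' deposited table. The same region had at 18 h against mock -0.01 ± 0.09 (adjusted p = 0.996), and it was higher at 18 h than at 2 h by 0.52 ± 0.09 (adjusted p = 1.38e-05) per the authors' deposited table. The next tested region, 9.51 kb away and also named for ITGB3, had the other sign at 2 h. Its value was 0.21 ± 0.16 (adjusted p = 0.752) per the authors' deposited table (DESeq2). The called region is among the 31 members that also carried another gene's name, so its calls are not those of ITGB3 alone. Among members with a single gene name, 4 regions were called at 2 h against mock and 23 at 18 h against 2 h.

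ITGA9 encodes an alpha subunit that binds tenascin and other matrix ligands and spans 371 kb on chromosome 3. A pair of regions inside it, 116 bases apart and 242129 and 241512 bases from the start, fell at 2 h, with -0.53 ± 0.13 (37694243 to 37694744; adjusted p = 0.00787) and -0.50 ± 0.14 (37693626 to 37694127; adjusted p = 0.0426) per the authors' deposited table. Regions this close are not independent of each other. Of 24 tested ITGA9 regions, 20 lay below 0 at 2 h, with a median of -0.23, and 7 (29.2%) were lower at an unadjusted p under 0.05, against 5.68% of all tested regions. The count at 18 h against mock was 1 of 12. ITGA9 was picked for this count after its values were seen.

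LAMC1 had a region 16.5 kb from its start (chromosome 1, 183039963 to 183040464; mean signal 583) that fell at 2 h, with -0.42 ± 0.11 (adjusted p = 0.0143) per the authors' deposited table. Another LAMC1 region, at 70.4 kb (183093886 to 183094387), had 0.49 ± 0.14 at 2 h and missed the threshold (adjusted p = 0.0517). The single member that rose at 2 h was named for ITGB5, a partner of alpha V that binds vitronectin. It lay inside the gene, 113 kb from the start (chromosome 3, 124774245 to 124774746; mean signal 179), and rose by 0.74 ± 0.18 (adjusted p = 0.00923) per the authors' deposited table. Its neighbours 4.95 and 5.49 kb away had -0.07 ± 0.25 and 0.38 ± 0.17, neither of them called per the authors' deposited table.

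How many members counted as higher at 2 h varied with where 0 was placed. As deposited, 1 was higher and 4 were lower. With fold changes taken relative to the median of all tested regions, 5 were higher and 2 lower, and relative to the median within each of 20 bins of signal, 4 were higher and 2 lower. The calls at ITGB3, at ITGB5 and at the ITGA9 region 242129 bases from the start held under both, whereas those at LAMC1 (16.5 kb) and at the other ITGA9 region did not. Regions gained under both were among others those of LAMC1 at 70.4 kb and ITGA4 at 85.0 kb, whose uncentred adjusted p-values were 0.0517 and 0.0596 per the authors' deposited table.

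Among the 35 genes with no call at 2 h, the region of smallest p was looked at in each. It came nearest to the threshold at ITGBL1, with 1.04 ± 0.31 at 2.08 kb (adjusted p = 0.058), followed by ITGA4 with the value given above (per the authors' deposited table). Among the other receptors for laminin, ITGA6 had -0.26 ± 0.10 at 14.5 kb (adjusted p = 0.227) and ITGA7 had -0.13 ± 0.19 at 4.23 kb (adjusted p = 0.914) per the authors' deposited table. The collagen receptors ITGA1, ITGA2, ITGA10 and ITGA11 had -0.54 ± 0.22, -0.20 ± 0.12, -0.10 ± 0.08 and 0.38 ± 0.16, with adjusted p-values of 0.306, 0.603, 0.756 and 0.354 per the authors' deposited table. ITGB1, their shared partner, had -0.27 ± 0.13 at 188 kb (adjusted p = 0.427), and ITGAV had 0.62 ± 0.26 at 34.4 kb (adjusted p = 0.314) per the authors' deposited table. LAMB1 had -0.57 ± 0.24 upstream of its start at 11.7 kb (adjusted p = 0.334) per the authors' deposited table, in a region that lies inside the span of LAMB4. LAMA5 had 0.40 ± 0.18 at 5.09 kb (adjusted p = 0.395) and LAMA3 0.39 ± 0.17 at 155 kb (adjusted p = 0.36) per the authors' deposited table. None of these values passed the test.

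The comparison of 18 h with mock asked what was present after the longer exposure. In the DESeq2 results of the authors' deposited table, 0 of 222 tested members were called, where 0.121% of all tested regions were called in either direction and 0.00542% as higher; no other tool could be run on these values. An unadjusted p under 0.05 was reached by 31 members (14%, against 7.89% of all tested regions), all of them lower, where 7.32% of all were lower and 0.569% higher. The median over the members was -0.10 and that over all tested regions -0.07. Lowest in p was a region inside LAMB1, the beta chain of many laminins, 50.2 kb from the start (chromosome 7, 107952555 to 107953056), with -0.41 ± 0.12 (adjusted p = 0.161) per the authors' deposited table. LAMA5, the alpha chain most common in adult basement membranes, followed with -0.41 ± 0.12 at 16.9 kb (adjusted p = 0.181), and LAMC1 with -0.49 ± 0.15 at 70.4 kb (adjusted p = 0.191), per the authors' deposited table. By role, 14 of 55 tested regions of beta subunits (25.5%) and 5 of 25 of gamma chains were lower at an unadjusted p under 0.05. For RGD-binding alpha regions it was 0 of 14 and for leukocyte alpha regions 0 of 5. With 7.32% of all tested regions lower, counts of 0 this small do not set those 2 classes apart. ITGB5 alone, with 14 tested regions, gave 6 of the lower beta regions. ITGB5 was picked for this count after its values were seen, and neighbouring regions are not independent.

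Whether accessibility differed between the exposure times was tested directly. At 18 h relative to 2 h, 24 of 431 tested members were called (5.57%, against 3.48% of all tested regions), 21 lower at 18 h (against 2.98% lower of all) and 3 higher (against 0.498% higher of all). The medians over tested regions were -0.03 for the members and 0.01 for all. Those that fell were spread over 11 genes; their log2 fold changes ranged from -1.41 to -0.31, with a median of -0.75. All 21 had a value above 0 at 2 h against mock (median 0.39, from 0.07 to 1.04) and one below 0 at 18 h against mock (median -0.37, from -0.80 to -0.09). These comparisons share libraries, so the signs are given side by side and are no separate support. Of the 21, 18 were tested at 2 h against mock, where 1 was called, and 17 at 18 h against mock, where 0 were called per the authors' deposited table.

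Among laminins, the smallest p belonged to the LAMC1 region at 70.4 kb, which fell by 0.98 ± 0.15 at 18 h (1.97-fold; adjusted p = 4.46e-08) per the authors' deposited table. Its neighbours 3.08 and 2.99 kb away, also named for LAMC1, had -0.01 ± 0.15 and -0.04 ± 0.21. The LAMC1 region at 16.5 kb went the other way, 0.34 ± 0.11 higher at 18 h (adjusted p = 0.0432), per the authors' deposited table. This call was lost with either centring. LAMA3, an alpha chain of epithelial laminin, had 1 lower region at 155 kb (chromosome 18, 23844906 to 23845407), at -0.76 ± 0.18 (adjusted p = 0.00127) per the authors' deposited table. At LAMA5 the 2 lower regions, at 5.09 and 16.9 kb, had -0.75 ± 0.18 and -0.52 ± 0.12 per the authors' deposited table (adjusted p = 0.00354 and 0.00241). The LAMB1 region at 50.2 kb fell by 0.47 ± 0.12 (adjusted p = 0.00593) per the authors' deposited table.

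ITGA3, the alpha subunit of a laminin receptor of epithelial and melanoma cells, had the most called regions of any member, 4, all lower at 18 h. At 6.21 and 8.5 kb from the start (chromosome 17, 50062321 to 50062822 and 50064609 to 50065110), mean signals were 1026 and 873, and the log2 fold changes were -0.39 ± 0.08 (adjusted p = 0.000529) and -0.31 ± 0.09 (adjusted p = 0.0159) per the authors' deposited table. Farther in, at 20.5 and 28.5 kb, signals were 47.1 and 49.7, and the regions had -1.25 ± 0.36 and -1.17 ± 0.37 (adjusted p = 0.0184 and 0.043) per the authors' deposited table. Neither weak region was tested against mock. All 10 tested regions inside ITGA3 lay below 0 at 18 h against 2 h, with a median of -0.72, whereas the 8 upstream ones had a median of -0.13, the start region included (-0.03 ± 0.10). At an unadjusted p under 0.05, 11 of 18 ITGA3 regions (61.1%) were lower, against 8.18% of all tested regions. ITGA3 was picked for this count after its values were seen, and neighbouring regions are not independent.

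**Figure D3:**
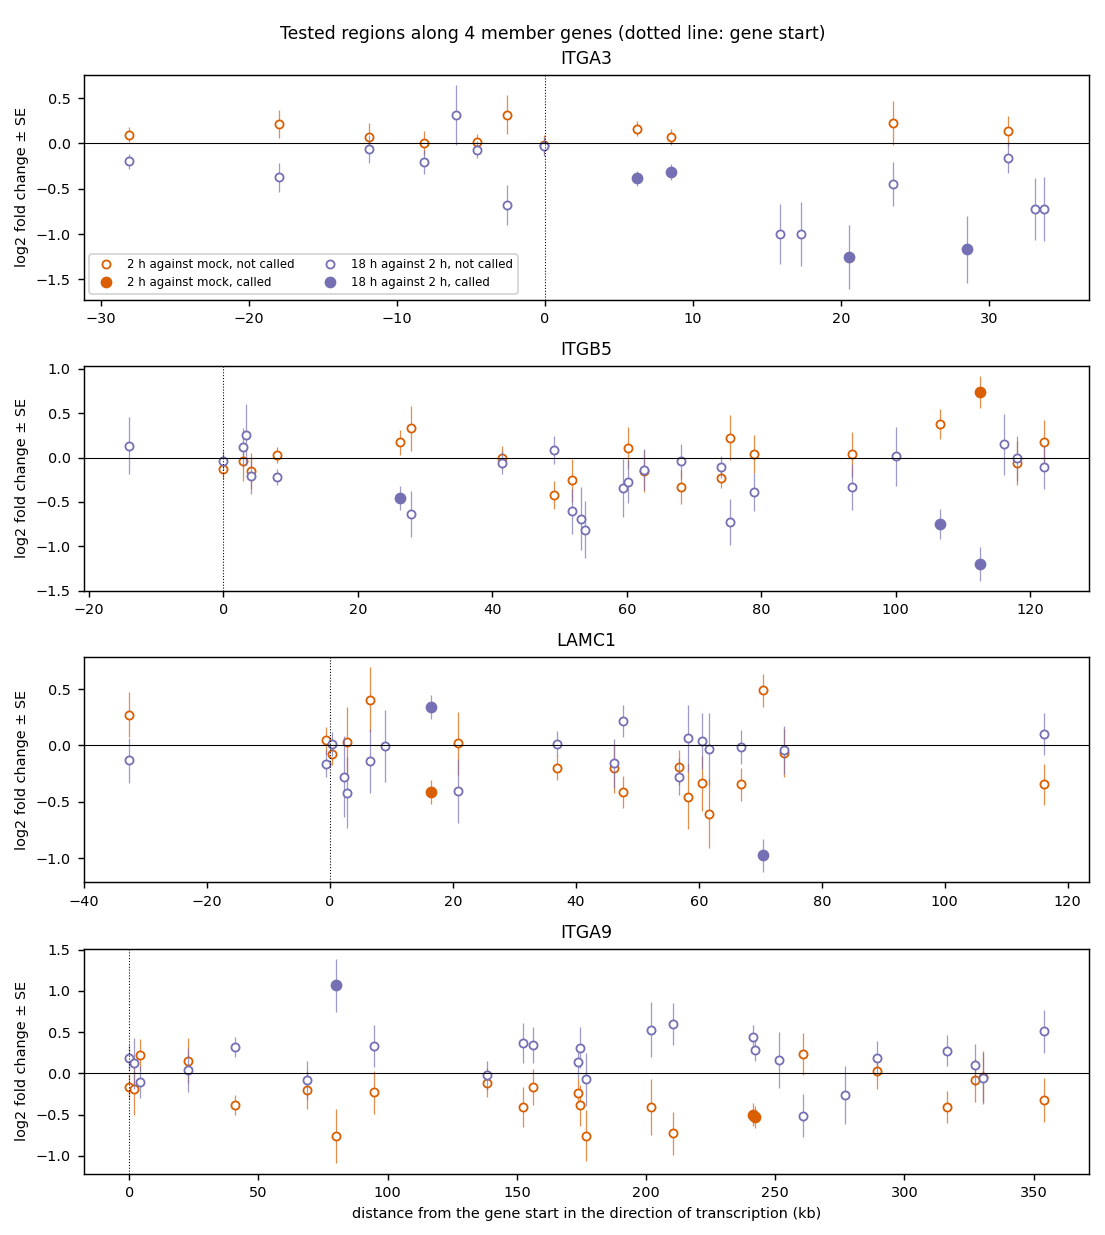
Log2 fold change with its SE of tested regions along ITGA3, ITGB5, LAMC1 and ITGA9 against distance from the gene start in the direction of transcription (kb). Filled points are called; along ITGA3 all 10 regions inside the gene lie below 0 at 18 h against 2 h, along LAMC1 2 regions at 16.5 and 70.4 kb moved in opposite directions, and along ITGA9 20 of 24 regions lie below 0 at 2 h against mock.

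Of the beta subunits, ITGB5 had 3 lower regions at 18 h against 2 h. The region that had risen at 2 h fell by 1.20 ± 0.19 (2.30-fold; adjusted p = 1.26e-07), and those at 107 and 26.2 kb (124780233 to 124780734 and 124860590 to 124861091) had -0.75 ± 0.17 (adjusted p = 0.00134) and -0.46 ± 0.14 (adjusted p = 0.0299) per the authors' deposited table. ITGB2, the shared beta subunit of leukocyte integrins, had 2 lower regions 401 bases apart, at 6.94 and 7.84 kb (chromosome 21, 44927794 to 44928295 and 44928696 to 44929197), with -0.53 ± 0.13 and -0.70 ± 0.17 (adjusted p = 0.00254 and 0.00202) per the authors' deposited table. The second overlaps the RefSeq start of ITGB2 and the first lies 520 bases from it. Its leukocyte alpha partners ITGAL, ITGAM, ITGAX and ITGAD had 3, 1, 3 and 2 tested regions in this comparison, too few for their count of 0 calls to be read. In this comparison ITGB3 was the one beta subunit with a higher region, given above. ITGB1, with 19 tested regions, had 0 called and 2 lower at an unadjusted p under 0.05, by DESeq2 per the authors' deposited table. Of all tested regions, 3.48% were called and 8.18% were lower at such a p, so these counts do not set ITGB1 apart.

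Among the remaining alpha subunits, a region 85.0 kb upstream of ITGA4, the subunit that binds VCAM-1 and fibronectin (chromosome 2, 181371692 to 181372193), fell by 1.07 ± 0.22 (2.10-fold; adjusted p = 0.000219) per the authors' deposited table. A weak region 37.9 kb upstream of ITGAV, the alpha subunit of vitronectin receptors (186551650 to 186552151; mean signal 42.1), fell by 1.19 ± 0.37 (adjusted p = 0.0425) per the authors' deposited table. ITGA9 had a region that rose instead, at 80.2 kb (chromosome 3, 37532292 to 37532793, mean signal 60.3). It rose by 1.07 ± 0.32 (DESeq2, adjusted p = 0.0316) per the authors' deposited table. Of 26 tested ITGA9 regions, 19 lay above 0, 5 of them at an unadjusted p under 0.05 (19.2%, against 3.44% of all tested regions higher). The same 2 h libraries gave the low ITGA9 values at 2 h against mock, so this count is no separate result. ITGA9 was picked after its values were seen, and neighbouring regions are not independent. Collagen-binding alpha subunits had 0 of 60 tested regions called by DESeq2 per the authors' deposited table, with 6 at an unadjusted p under 0.05, and leukocyte alpha subunits 0 of 15 with 0 at that p, where 3.48% of all tested regions were called and 11.6% had such a p. Counts of this size do not set either class apart. ITGBL1 had 3 lower regions, at 2.08, 3.25 and 188 kb from its start (chromosome 13), with -1.41 ± 0.32, -0.67 ± 0.20 and -0.90 ± 0.20 (adjusted p = 0.000912, 0.0254 and 0.00053) per the authors' deposited table. Without ITGBL1, 21 of 418 regions of subunit genes were called, 18 lower and 3 higher.

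**Figure D4:**
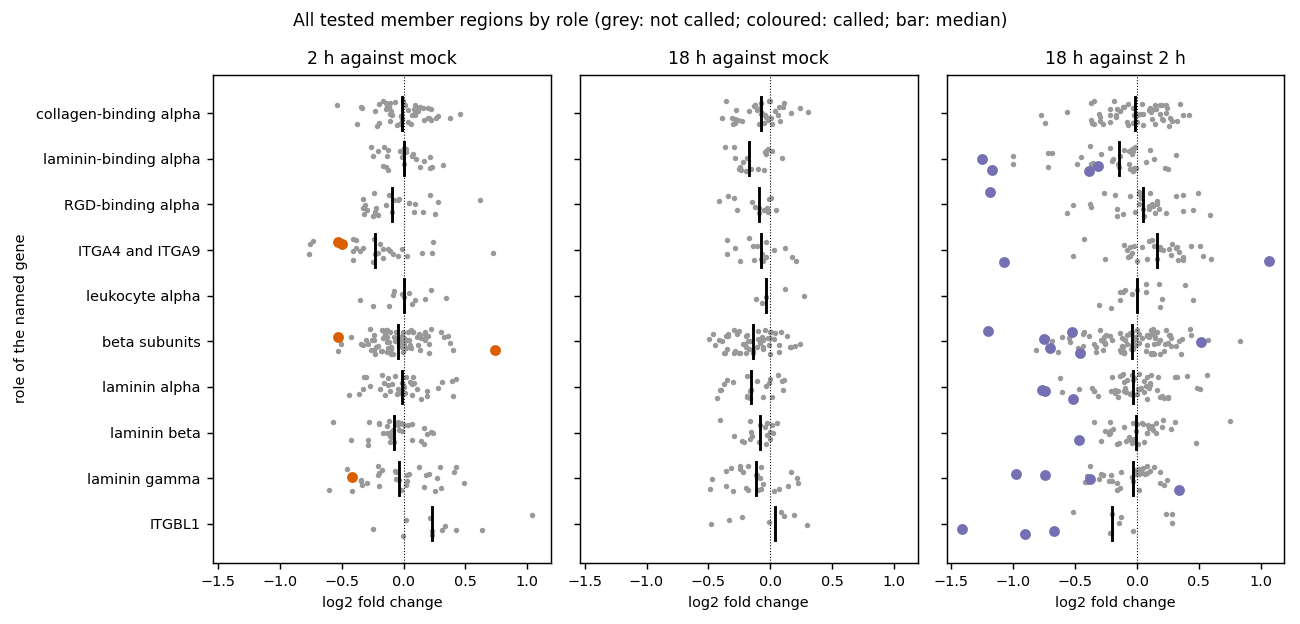
Log2 fold change of every tested member region by role of the named gene in the 3 comparisons; coloured points are called and black bars are medians. The called regions at 18 h against 2 h lie mostly below 0, as over all tested regions (2.98% lower and 0.498% higher). The collagen-binding and leukocyte alpha rows hold 0 called of 60 and 15 tested. With 3.48% of all tested regions called, these counts do not set either row apart.

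Tested neighbours within 10 kb of the called regions were looked at for whether a change was shared. Between 18 h and 2 h, 29 of 36 neighbours had the sign of the called region, and 8 of them were themselves called. All 8 belong to pairs of called regions at ITGA3, ITGB2, ITGB5 and ITGBL1, each counted as the other's neighbour. The 29 of 36 includes these pairs, and an uncalled ITGA3 region (-0.45 ± 0.25) between 2 called ones is counted for each. Of all 108134 tested regions, 51971 lay below 0 in this comparison. At 2 h against mock, 3 of 7 neighbours had the same sign. Of these, 2 are the called ITGA9 pair counted as each other's neighbour, and without that pair it was 1 of 5. By distance, the 24 regions called at 18 h against 2 h included 0 within 1 kb of the authors' assigned start. Of all regions, 0.268% of those overlapping a start and 0.659% of the others within 1 kb were called. At 1 to 10 kb it was 7 of 80 tested (8.75%, against 2.57% of all regions at that distance). These 7 came from ITGA3, ITGB2, ITGBL1 and LAMA5 only, mostly as pairs of nearby regions, which are not independent. The ITGB2 regions overlap the RefSeq start or lie 520 bases from it. At 10 to 100 kb it was 13 of 241 (5.39%, against 3.91%) and beyond 100 kb 4 of 83 (4.82%, against 4.64%).

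Genes that act with integrins and laminins were read in the same way. These lists were chosen with earlier results of these data known, so their shares in any comparison are no independent support. For 18 h against 2 h, proteins of the intracellular adhesion complex had 21 lower and 2 higher of 416 tested regions (5.53%), other basement membrane components and laminin receptors had 13 lower of 165 (7.88%), and integrin ligands other than laminins had 29 lower of 224 (12.9%), against 3.48% of all tested regions. For the ligands 20 of the 29 were at THBS1, and without this gene 9 of 174 were lower (5.17%). TLN2, a talin that links integrins to actin, had a region with -1.27 ± 0.15 (adjusted p = 1.40e-13), and COL4A2, a basement membrane collagen, had one with -1.45 ± 0.18 (adjusted p = 6.80e-12) per the authors' deposited table. The same regions had risen at 2 h against mock, by 0.99 ± 0.15 and 1.02 ± 0.18 (adjusted p = 9.07e-08 and 1.03e-05) per the authors' deposited table. AGRN, a basement membrane proteoglycan, had -1.13 ± 0.19 at 18 h against 2 h, and THBS1, a matrix protein that binds integrins, had -2.18 ± 0.22 (adjusted p = 1.33e-06 and 1.33e-18) per the authors' deposited table.

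At 2 h against mock, the called regions of these lists were all higher: 7 of 307 tested for the intracellular proteins (2.28%), 4 of 126 for the basement membrane list (3.17%) and 17 of 187 for the ligands (9.09%), against 0.856% higher of all tested regions. Of the 17, 13 were at THBS1, and without it 4 of 142 regions (2.82%) were called. At 18 h against mock, 1 of 206 tested regions was called in the first list and 1 of 88 in the second. Both were lower, where 0.116% of all tested regions were. A count of 1 in either list is too small to be read. PXN, which encodes the adaptor paxillin, had -0.59 ± 0.14 (adjusted p = 0.0271) and HSPG2, the proteoglycan perlecan, had -0.59 ± 0.14 (adjusted p = 0.0264) per the authors' deposited table. None of the 128 tested ligand regions was called at 18 h against mock by DESeq2 per the authors' deposited table, with 13 (10.2%) at an unadjusted p under 0.05. Of all tested regions, 0.121% were called and 7.89% had such a p, so the lack of calls does not set the ligands apart.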

How the data were processed

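ATAC-seq was run on 6 libraries of A375 cells, in 3 groups of 2, per the labels. Per the submitters' processing notes, reads were demultiplexed with bcl2fastq 2.17, the genome build was hg38 and DESeq2 was used (its version is not stated); aligner, peak caller and counter are not given in the sources used here. Deposited tables give, per the file headers, the mean signal of each region (scaled read counts over 6 libraries), the Wald score, the p-value and adjusted p-value, a log2 fold change with its SE, and the distance to the named gene's start.

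No column holds the values of 1 library (0 columns), so the planned count test could not be run and the authors' own DESeq2 tests are reported. An adjusted p of exactly 1 marks regions below a mean signal of 56.2 for 2 h and 101 for 18 h, each against mock, and 41.7 for 18 h against 2 h; these count as untested. Benjamini-Hochberg adjustment of the deposited p-values over the remaining regions gave the deposited adjusted p-values back to within 4.99e-14. Repeated rows of a region were counted once. Named regions are those called at adjusted p under 0.05, with start regions, the smallest-p region at 2 h of genes without a call, and members of related lists added. Gene spans and promoter windows came from RefSeq (GRCh38.p14). Coordinates are as the files give them; whether they count from 0 or 1 is not stated. Some results are not reported here, although the counts include them. Members and gene lists were chosen with earlier results of these data known. The alternatives were other adjusted p thresholds, no filter on signal, centring, and other member sets. Python 3.11.15, pandas 2.3.3 and SciPy 1.17.1 were used, and the calculations were tested on simulated data.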

Additional observations from a re-analysis of the deposited data

Results flagged for a closer look

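The effects at 2 h and at 18 h, each against mock, differed at 24 of 431 tested member regions by the direct test of 18 h against 2 h (DESeq2, adjusted p under 0.05, in the authors' deposited table). This was 5.57%, against 3.48% of all tested regions, and 22 of the 24 are given here. Log2 fold changes at regions of integrin alpha subunits were -0.39, -0.31, -1.25 and -1.17 at ITGA3, -1.07 at ITGA4, 1.07 at ITGA9 and -1.19 at ITGAV. At beta subunits they were -0.53 and -0.70 at ITGB2, 0.52 at ITGB3 and -1.20, -0.75 and -0.46 at ITGB5, and at ITGBL1 they were -1.41, -0.67 and -0.90. At laminin chains they were -0.76 at LAMA3, -0.52 and -0.75 at LAMA5, -0.47 at LAMB1 and 0.34 and -0.98 at LAMC1. Values of single libraries were not analysed here, so no library could be compared with the others.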

How the results depend on the processing

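At 18 h against mock, 0 members were called under each of the 8 alternatives run. At 2 h against mock, the 5 calls became 3 at an adjusted p under 0.01, 10 at one under 0.1 and 2 among regions within 100 kb of the start, and lay between 4 and 7 under the other alternatives. At 18 h against 2 h, the 24 calls became 15 at an adjusted p under 0.01 and lay between 19 and 28 otherwise. Without the filter on signal, 17 of the 24 were kept. No called region changed sign; the median over members at 2 h against mock, -0.04 as deposited, became 0.017 and 0.0098 under the 2 forms of centring. No paired analysis was possible because the deposited tables hold no values of single libraries. For the same reason the planned edgeR fit, other normalizations and leaving out each library were not run. Weak regions limit what could be seen, since 383 members were tested nowhere.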
